A study of Mus musculus with 8 samples.

Results

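The comparison described here set microglia from mice with experimental autoimmune encephalomyelitis (EAE) that were given iguratimod against microglia from mice with EAE that were not, in the control genotype alone. It uses 2 of the 8 whole-transcript expression arrays of the study, chosen by their labels: FL EAE with iguratimod, and FL EAE. All mice were of strain C57Black/6J, and FL was taken as the control genotype of the floxed line, which one label calls wt. The other genotype, labelled icKO, is deficient in Cx47, a gap junction protein of oligodendrocytes. Its iguratimod and untreated EAE arrays share no array with the control pair and are given beside it as values. Levels on the naive control array, the naive icKO array and the 2 EAE arrays labelled p50 are given where they help to place a value. The dose and timing of iguratimod, the ages of the animals, the number of animals behind an array, the Cre driver of the icKO line and the way the microglia were isolated are not given in the sources used here. Each group holds 1 array, so every difference below is a difference between 2 arrays, with no replicate check and no test.

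Microglia are the resident macrophages of the brain and spinal cord. At rest they express a set of homeostatic genes for surveying the tissue, and in inflamed or demyelinated tissue they take on states with more antigen presentation, phagocytosis, lysosomal activity and interferon-induced transcripts. In EAE, an autoimmune disease of the central nervous system used as a model of multiple sclerosis, blood monocytes, neutrophils and T cells also enter the tissue. Iguratimod is an antirheumatic small molecule known to reduce NF-kB signalling, prostaglandin synthesis and the activity of the cytokine MIF.

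Levels are log2(intensity + 16), and a fold is 2 to the power of the difference on that scale, which understates the differences of dim genes. Of 30702 named genes, 16382 were kept because they exceeded the median of all named probe sets on 1 or both arrays of the pair. The median intensity was 266.7 on the iguratimod array and 246.7 on the untreated EAE array, within the range over all 8 arrays. No detection calls were used, so absence of a transcript could not be judged. Precision is limited by having 1 array a group. The labelled cell type was checked against the homeostatic microglia list, of which 22 of 22 measured genes were kept. By contrast 0 of 9 measured neuronal markers, 1 of 10 oligodendrocyte markers, 1 of 10 endothelial and mural markers and 3 of 9 astrocyte markers were kept. Also kept were 15 of 18 neutrophil, 10 of 12 monocyte, 8 of 12 dendritic cell and 8 of 10 border-associated macrophage markers. Fewer were kept of T cell (5 of 14), NK (4 of 12) and B and plasma cell (4 of 11) markers. This check therefore does not show that other myeloid cells were absent. The 2 p50 arrays differed from the pair in Xist, at 15.90 and 16.64, against 7.98 with iguratimod and 7.93 without.

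The untreated EAE array of the control genotype stood apart from the rest of the series in neutrophil transcripts. The summed intensity of the 18 measured neutrophil markers was 52843 on the iguratimod array and 952159 on the untreated EAE array. On the icKO arrays it was 150544 with iguratimod and 121926 without, and on the remaining arrays it lay between 17392 and 36681. Of the 15 neutrophil genes kept, 13 were higher on the untreated EAE array than on any of the 6 arrays outside the pair, against 16.01% of all genes kept. On the iguratimod array 2 were higher and 1 was lower than on any of those 6, where the shares over all genes were 19.8% and 13.5%. The 12 measured monocyte markers summed to 7934 with iguratimod and 30820 without, and to 15126 with iguratimod and 31292 without in icKO. The 14 measured T cell markers summed to 3873 with iguratimod and 3708 without. The sum of the 22 homeostatic genes was 1533800 with iguratimod and 1521400 without, but most of it came from Cst3 and Cx3cr1, whose values cannot show a difference. For these 2 genes the intensities of the pair stand in the ratio of the highest intensities of the 2 arrays, a log2 difference of -0.01, and after that scaling the same value recurs on other arrays of the series. The same holds for 24 of the genes kept, Ctss and COX1 among them. The other 20 homeostatic genes summed to 608299 with iguratimod and 590089 without. In RNA from a cell preparation, fewer cells of a type and less RNA per cell cannot be told apart. The difference in neutrophil and monocyte transcripts lies alongside every result below, and its part in them was not tested.

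**Figure D1:**
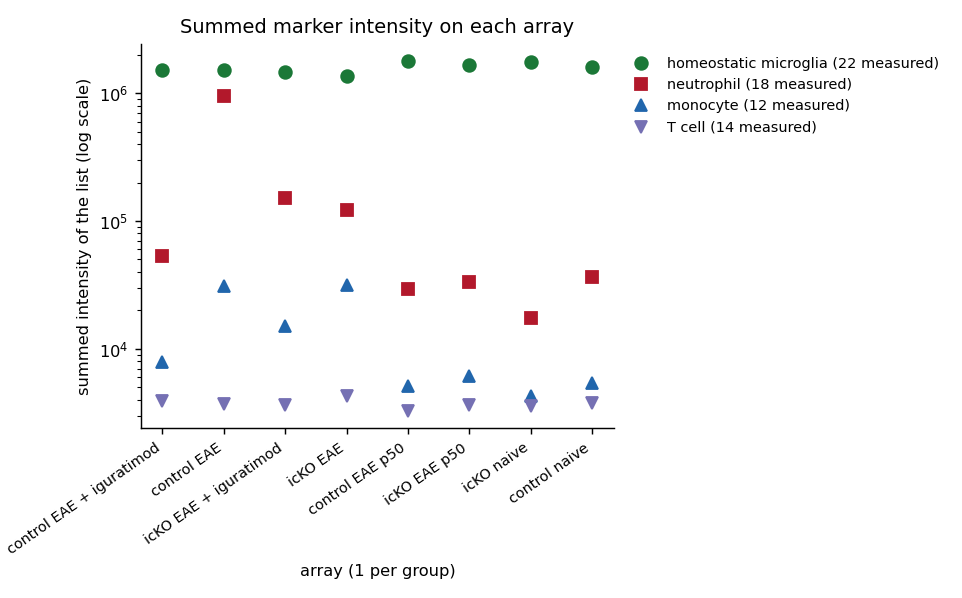
Summed intensity (log axis) of the homeostatic microglia, neutrophil, monocyte and T cell marker lists on each of the 8 arrays, 1 array a group, over all measured members. The neutrophil sum is 52843 on the control iguratimod array and 952159 on the control EAE array, the highest of the series, while the homeostatic sums are 1533800 and 1521400, largely from Cst3 and Cx3cr1, whose values repeat across arrays.

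Over all 16382 genes the median difference, iguratimod minus untreated EAE, was -0.02, that over the 8713 protein-coding genes that can be named was -0.12, and 5% and 95% of genes lay below -0.68 and 0.68. At least 2-fold lower levels with iguratimod were found for 305 genes (1.86%) and at least 2-fold higher levels for 171 (1.04%), while 52.4% of genes were lower by any amount. This split of 64.1% lower among the genes past 2-fold depends on scaling: with the arrays centred on their medians it was 81.1%, from 396 lower and 92 higher genes, with the median of all genes at -0.11. Each difference then moves by -0.0964, and those above 0 by less than that change sign. Lower levels past 2-fold were more frequent among bright genes. With the genes ordered by brightness into 5 groups of equal size, the brightest group held 180 lower and 46 higher genes and the dimmest held 22 lower and 45 higher.

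The kinds of genes on the 2 sides were unlike. Among 8713 protein-coding genes that can be named, 146 (1.68%) were at least 2-fold lower and 19 (0.218%) at least 2-fold higher. The other 152 of the 171 higher genes were of kinds not named here, among them 29 of 492 microRNA genes, 24 of 770 snoRNA genes and 20 of 627 snRNA genes. On the lower side these kinds held 159 genes, including 33 of 201 ribosomal protein pseudogenes. Of the 146 named lower genes, 17 belonged to leukocyte lists, which held 50 genes kept, and 7 to microglial lists, which held 43. Of the 19 named higher genes none belonged to either. With lists of this size and a share of 0.218% over all named genes, that says little about the lists.

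**Figure D2:**
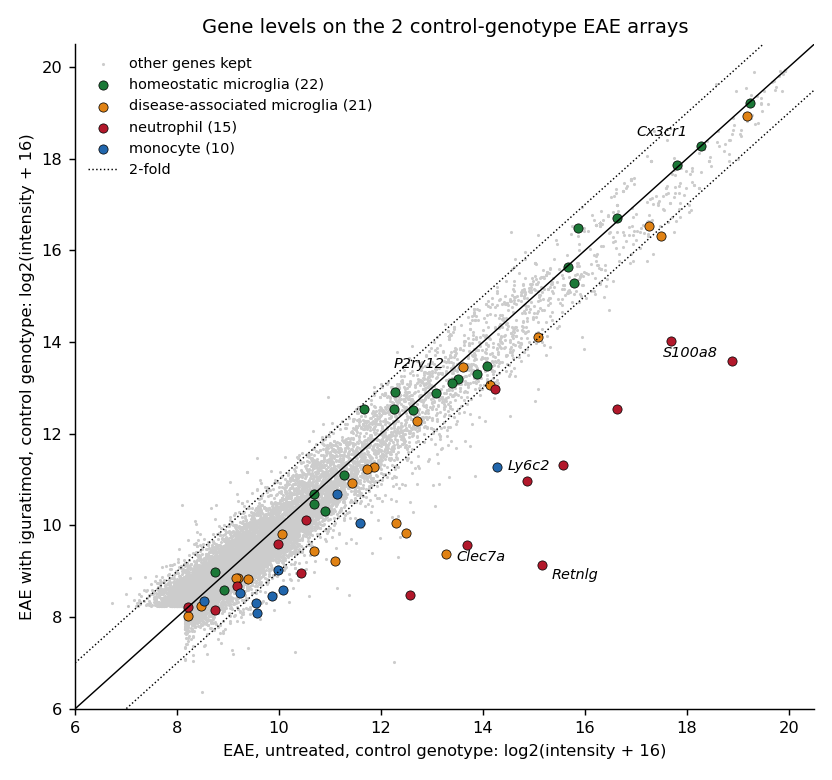
Level of each gene kept on the EAE array with iguratimod (vertical axis) against the untreated EAE array (horizontal axis), control genotype, as log2(intensity + 16), 1 point a gene. Homeostatic microglia genes lie along the line of equal levels, disease-associated genes lie on or below it, and of the marked genes the one furthest below is the neutrophil gene Retnlg, at 9.15 with iguratimod and 15.16 without.

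The homeostatic microglia genes differed little as a list. The median difference of the 22 genes was -0.07, against -0.12 over protein-coding genes, 15 were lower and 7 higher, and 0 passed 2-fold either way. Without Cst3 and Cx3cr1 it was -0.14. P2ry12, the purinergic receptor with which microglial processes sense injury, lay at 13.20 with iguratimod and 13.52 without. Tmem119, a membrane protein used to mark microglia, lay at 10.30 with iguratimod and 10.90 without. For Cx3cr1, the fractalkine receptor gene, the listed levels of 18.26 with iguratimod and 18.27 without differ by the scaling of the arrays alone and cannot be compared.

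Within the list the members spread in both directions. The lowest differences were those of Mertk (-0.60), a receptor for the uptake of apoptotic cells, Tmem119 (-0.60), Tgfbr1 (-0.58), a receptor for TGF-beta, and Csf1r (-0.51), the receptor on whose signal microglia depend for survival. The highest were those of the uroplakin gene Upk1b (0.87), the small GTPase gene Rhob (0.64) and the purinergic receptor gene P2ry13 (0.64). Upk1b lay at 12.54 with iguratimod, 11.67 without and 13.01 on the naive control array, and P2ry13 lay at 16.49, 15.86 and 16.49 on the same arrays. For Upk1b, Rhob and P2ry13 the iguratimod array was therefore the one of the EAE pair nearer to naive. For Csf1r (15.28 with iguratimod, 15.79 without) and Tgfbr1 (13.31 with iguratimod, 13.89 without) the naive levels were 15.61 and 14.10. Mertk lay at 13.47 with iguratimod, 14.08 without and 13.94 in naive, and Tmem119 at 10.30, 10.90 and 10.69. For all of these lowest members the untreated array was the one of the pair nearer to naive, and naive lay above the iguratimod array.

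The disease-associated microglia genes, which mark the phagocytic and lipid-handling state around damaged tissue, were lower with iguratimod throughout. All 21 kept members were lower, by a median of -0.55, and 7 were at least 2-fold lower. Of them Lpl and Igf1 passed the filter through the untreated EAE array alone. Clec7a, the beta-glucan receptor dectin-1, lay at 9.38 with iguratimod and 13.27 without, which is 14.9-fold lower. Its naive control level was 9.12. The cystatin gene Cst7 lay at 9.83 with iguratimod and 12.48 without (6.27-fold lower), against 8.85 in naive. Apoe, the lipid carrier that microglia induce in this state, lay at 10.06 with iguratimod and 12.30 without (4.72-fold lower), against 9.80 in naive. Axl, a receptor for the clearance of dying cells, lay at 9.21 with iguratimod and 11.10 without (3.68-fold lower), against 9.16 in naive. For all 4 genes the level with iguratimod was closer to the naive array than to the untreated EAE array.

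The other members past 2-fold were Itgax (-1.26), the integrin CD11c, Ctsb (-1.17), a lysosomal protease, and the tetraspanin gene Cd63 (-1.08). Trem2, the lipid receptor needed for this state, lay at 11.27 with iguratimod and 11.86 without, and its adaptor Tyrobp at 16.52 with iguratimod and 17.25 without. The smallest differences were those of Cd9 (-0.16), Lpl (-0.18) and Igf1 (-0.22). Here 2 genes (9.52%) were higher on the untreated EAE array than on all 6 arrays outside the pair, against 16.01% of all genes. On the iguratimod array 5 were lower than on all 6, a share of 23.8% against 13.5%. That share was not particular to this list, since it was 22.7% (5 of 22) in the homeostatic list. Neutrophils and monocytes can also express genes of this list, Clec7a, Itgax and Cd63 among them, and the sums of their markers given above lie in the same direction. Which other members these cells express was not examined.

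**Figure D3:**
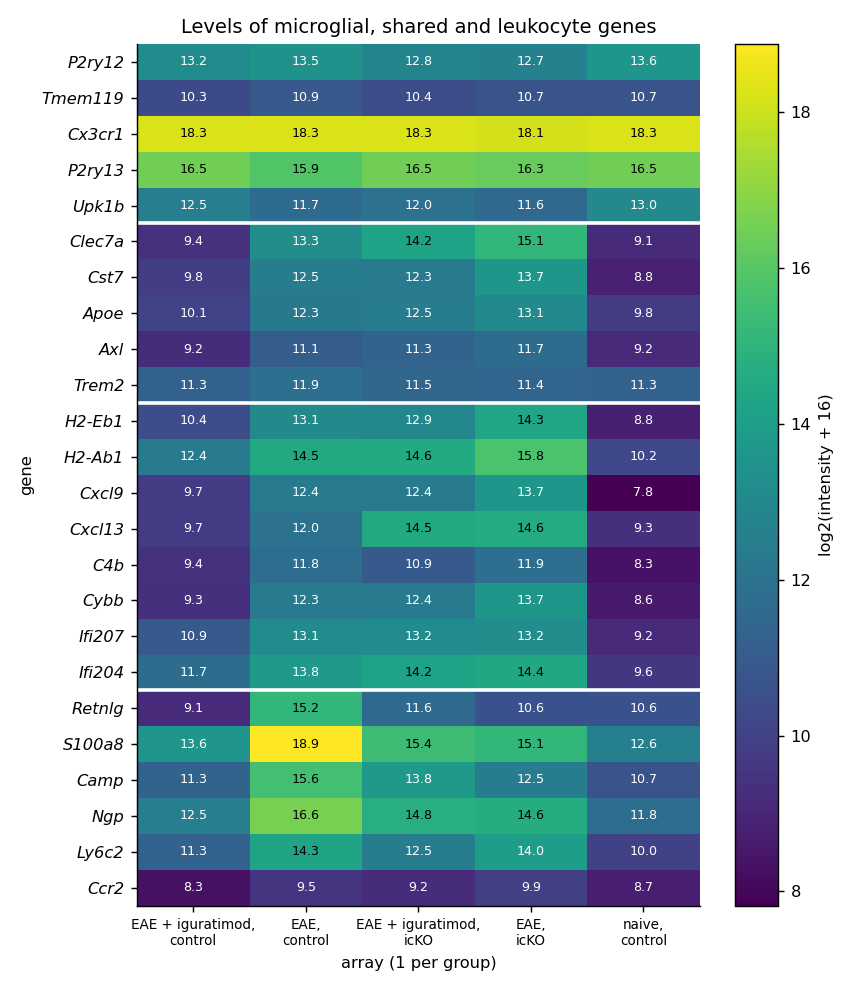
Levels, as log2(intensity + 16), of homeostatic, disease-associated, shared immune and leukocyte genes (blocks from top to bottom) on 5 arrays, with iguratimod left of untreated EAE in each genotype and naive control last. Clec7a, Cst7, Apoe and Axl are lower on the control iguratimod and naive arrays than on the other 3, and Retnlg and S100a8 are highest on the control EAE array.

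The MHC class II genes, which present extracellular antigen to helper T cells, had a median difference of -0.73, with 10 of 11 lower and 3 at least 2-fold lower. The 3 were the chains of the classical molecules. H2-Eb1 lay at 10.43 with iguratimod and 13.06 without (6.19-fold lower), and at 8.78 in naive. H2-Ab1 lay at 12.38 with iguratimod and 14.53 without (4.43-fold lower), and at 10.21 in naive. H2-Aa lay at 9.97 with iguratimod and 11.62 without (3.13-fold lower), and at 9.03 in naive. Genes that load peptide onto these molecules differed less, at -0.88 for H2-DMb1 and -0.85 for H2-DMa. Ciita, the coactivator that switches the class II genes on, was dim and nearly equal, at 8.13 with iguratimod and 8.20 without. It passed the filter through the untreated EAE array alone. The invariant chain gene was not analysed here.

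The promoters of 2 of these chains are shown because their differences were among the largest of the class II genes and a promoter element of this family, the Y box, lies close to the start of each. The sequences are from RefSeq (GRCm38.p6), on the gene's strand up to the base before the start, with the Y box letters CTGATTGG in capitals.
H2-Eb1: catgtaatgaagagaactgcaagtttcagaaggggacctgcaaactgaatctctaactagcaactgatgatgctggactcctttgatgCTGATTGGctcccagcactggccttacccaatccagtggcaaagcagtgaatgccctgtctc
H2-Aa: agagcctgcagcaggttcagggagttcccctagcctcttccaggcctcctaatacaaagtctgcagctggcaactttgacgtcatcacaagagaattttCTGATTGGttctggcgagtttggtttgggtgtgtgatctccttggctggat
The window of H2-Eb1 is chr17:34305717-34305866 on the + strand, with the match 62 bases before the start, and that of H2-Aa is chr17:34287824-34287973 on the - strand, with the match 51 bases before the start. Searched on both strands from 250 bases before to 50 after the start, these letters were found in 4 of the 9 class II genes that have a promoter sequence (H2-Aa, H2-Eb1, H2-Eb2 and H2-Oa) and in 4.10% of all 32851 promoters. H2-Eb2, with the same letters, had a difference of 0.20 and H2-Oa one of -0.73, so genes that share the element had unlike differences. The H2-Aa window also holds the letters TGACGTCA, in lower case here.

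MHC class I genes and the genes of their peptide loading were all lower by less than 2-fold. The median of the 8 genes was -0.65, and of them Tap2 passed the filter through the untreated EAE array alone. Tap1, a subunit of the peptide transporter, had a difference of -0.84, H2-K1 and H2-D1, the classical class I heavy chains, had -0.83 and -0.61, and B2m, their light chain, had -0.23. H2-K1 lay at 12.49 with iguratimod and 13.32 without, and at 10.67 in naive. The H2 genes resemble each other in sequence, so their probe sets may share signal.

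The type I interferon response genes had a median difference of -0.84, and 22 of 23 were lower. At least 2-fold lower levels were found for 9 of them. The largest were those of 3 neighbouring genes of the p200 family on chromosome 1, which encode nuclear DNA-binding proteins. Ifi207 lay at 10.89 with iguratimod and 13.14 without (4.74-fold lower), Ifi211 at 10.50 with iguratimod and 12.57 without (4.20-fold lower), and Ifi204 at 11.74 with iguratimod and 13.75 without (4.04-fold lower). Their naive levels were 9.18, 8.79 and 9.61, below the iguratimod array. The antiviral membrane protein gene Ifitm3 was 3.72-fold lower, and the oligoadenylate synthetase genes Oas2 and Oas1a were 2.69-fold and 2.38-fold lower. Stat2, a subunit of the factor that binds interferon response elements, was 2.18-fold lower. Within the list Oasl2, counted among the 9, and Cmpk2 passed the filter through the untreated EAE array alone.

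Other genes of the same response were close to equal on the 2 arrays. Isg15, a ubiquitin-like modifier, lay at 8.85 with iguratimod and 8.76 without. Ifit1, an RNA-binding protein, lay at 9.23 with iguratimod and 9.27 without. Mx1 (-0.14) and Rsad2 (-0.18) were alike. The p200 and Oas genes have close paralogs, so their values may be mixed among family members.

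The promoters of genes with large and with small differences are printed side by side, since an interferon response element is known to drive genes of this response. The letters searched were a short form of that element, GAAA followed by any 2 bases and GAAA again. Both strands were searched, so that the element reads TTTC, any 2 bases and TTTC on the other strand, and matches, which can overlap, are in capitals.
Ifi207: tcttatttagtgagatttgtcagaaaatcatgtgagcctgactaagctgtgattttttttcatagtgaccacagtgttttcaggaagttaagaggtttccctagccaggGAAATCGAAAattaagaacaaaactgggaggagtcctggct
Ifi211: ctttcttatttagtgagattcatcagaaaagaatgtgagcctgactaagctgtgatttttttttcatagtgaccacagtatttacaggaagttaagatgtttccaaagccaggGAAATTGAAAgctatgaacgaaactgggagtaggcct
Oas1a: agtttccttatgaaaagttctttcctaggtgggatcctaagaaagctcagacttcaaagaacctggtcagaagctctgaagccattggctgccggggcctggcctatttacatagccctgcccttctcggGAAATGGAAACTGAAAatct
Isg15: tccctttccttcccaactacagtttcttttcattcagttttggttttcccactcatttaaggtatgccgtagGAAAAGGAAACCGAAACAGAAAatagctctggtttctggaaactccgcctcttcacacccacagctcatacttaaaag
Ifit1: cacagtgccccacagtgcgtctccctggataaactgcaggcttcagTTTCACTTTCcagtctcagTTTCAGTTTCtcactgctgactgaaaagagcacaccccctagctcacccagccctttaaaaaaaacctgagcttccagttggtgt
These RefSeq windows (GRCm38.p6) end at the base before the start. Ifi207 is chr1:173741810-173741959 on the - strand, Ifi211 is chr1:173913047-173913196 on the - strand, Oas1a is chr5:120907526-120907675 on the - strand, Isg15 is chr4:156200819-156200968 on the - strand and Ifit1 is chr19:34640739-34640888 on the + strand. The match furthest from the start began 41, 37, 20, 78 and 104 bases before it, in that order of genes. Of the 17 interferon genes with a promoter sequence 12 held the letters, against 3.44% of all promoters. Both Isg15 and Ifit1, with near-equal levels, hold more than 1 match, and Ifi207, with the largest difference of the list, holds a single one, so the letters occur both in genes with large differences and in genes with near-equal levels.

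The interferon-gamma-inducible GTPases, which act against intracellular pathogens, were lower in 9 of 9 cases by a median of -0.64. Iigp1 (-1.06) and Gbp2 (-1.02) were at least 2-fold lower. Gbp2 lay at 9.61 with iguratimod and 10.63 without, and at 8.14 in naive.

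Chemokine genes differed in both directions. Of 11 kept, 7 were lower and 4 higher, with a median of -0.77, 3 at least 2-fold lower and 1 at least 2-fold higher. Cxcl9, an interferon-gamma-induced attractant of activated T cells, lay at 9.74 with iguratimod and 12.37 without (6.21-fold lower), against 7.82 in naive. Cxcl13, an attractant of B cells, lay at 9.72 with iguratimod and 11.98 without (4.78-fold lower), against 9.31 in naive. Cxcl16, a membrane-bound chemokine and scavenger receptor, was 2.11-fold lower. By contrast Ccl3, a macrophage inflammatory chemokine, lay at 13.78 with iguratimod and 12.31 without (2.78-fold higher), and Ccl4 and Ccl2 had differences of 0.35 and 0.27.

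Among proinflammatory cytokines and enzymes 6 of 8 kept genes were lower, with a median of -0.42. Il1rn, which encodes the interleukin 1 receptor antagonist, lay at 8.34 with iguratimod and 9.49 without (2.21-fold lower). Il1b, the cytokine it opposes, lay at 8.71 with iguratimod and 9.77 without (2.08-fold lower). Tnf had a difference of -0.41 and the inflammasome protease gene Casp1 one of -0.44, while Il1a (0.33) and Nlrp3 (0.31) were higher. The other 6 measured members of this list, among them Il6, Nos2 and Ptgs2, were below the filter on both arrays and were not compared.

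Genes of complement and of Fc receptors, which act in the marking of material and its uptake, were lower throughout. All 10 kept complement genes were lower by a median of -0.76. C4b, a component of the classical pathway, lay at 9.40 with iguratimod and 11.83 without (5.38-fold lower), against 8.34 in naive. The receptor genes C5ar1 and Itgam had differences of -0.94 and -0.80, and among the C1q chains C1qb had -0.79, C1qa -0.30 and C1qc -0.19. All 7 Fc receptor and adaptor genes were lower by a median of -0.53, led by the activating receptor gene Fcgr4, at 10.88 with iguratimod and 12.48 without (3.02-fold lower) and 7.95 in naive. Its level with iguratimod was thus closer to untreated EAE than to naive.

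The NADPH oxidase, the phagocyte enzyme that makes superoxide, had the lowest median of the shared immune lists, -1.18, with 5 of 5 genes lower and 3 at least 2-fold lower. Cybb, its catalytic subunit, lay at 9.31 with iguratimod and 12.33 without (8.07-fold lower), against 8.61 in naive. Rac2, the small GTPase that activates it, was 2.87-fold lower, and the membrane subunit gene Cyba was 2.26-fold lower. Neutrophils and monocytes also express this enzyme, and their markers were lower on the same array.

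Lists tied to the known actions of iguratimod were read next. NF-kB subunits and feedback regulators had a median of -0.21, with 9 of 12 lower and 0 past 2-fold. Nfkbia, the inhibitor that NF-kB itself induces, had -0.56, the subunit genes Rel and Rela had -0.54 and -0.34, and Tnfaip3, another induced inhibitor, had -0.15. Nfkb1 was not analysed here. Mif, the cytokine whose activity iguratimod reduces, lay at 9.38 with iguratimod and 10.70 without (2.50-fold lower) and at 9.09 in naive. Of its receptors, Cxcr4 lay at 6.37 with iguratimod and 8.49 without (4.36-fold lower), with the iguratimod level well under the filter, Cxcr2 had -0.38 and Cd44 had -0.37.

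Genes of prostaglandin and leukotriene synthesis were lower in 7 of 8 cases by a median of -0.32, and 0 passed 2-fold. Alox5ap, the activator of 5-lipoxygenase, had -0.98, the thromboxane synthase gene Tbxas1 had -0.58 and Alox5 had -0.53. The prostaglandin-degrading enzyme gene Hpgd was the member that was higher, at 12.17 with iguratimod and 11.70 without. Toll-like receptor genes had a median of -0.28, with Tlr1 (3.11-fold lower) and Tlr9 (2.02-fold lower) past 2-fold, Tlr2 at -0.84 and the co-receptor gene Cd14 at 0.41. With iguratimod Tlr1 and Tlr9 lay below naive, at 10.03 against 10.46 and at 10.51 against 10.73.

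Cathepsins and cystatins, the lysosomal proteases and their inhibitors, were lower in 12 of 13 cases by a median of -0.72, with 4 at least 2-fold lower. Besides Cst7, Cstb, an inhibitor of cathepsins, lay at 10.88 with iguratimod and 13.02 without (4.39-fold lower), and the proteases Ctsb and Ctsc were 2.25-fold and 2.20-fold lower. The antigen-preparing protease gene Lgmn had -0.04. Ctss, another such protease, and Cst3, the secreted inhibitor cystatin C, are counted among the lower genes but have repeated values that cannot show a difference, and without them the median was -0.84. Lysosome and phagocytosis genes were lower in 15 of 16 cases by a median of -0.63. Of these Cd36, a scavenger receptor, was 2.31-fold lower, and it passed the filter through the untreated EAE array alone. Cd68 and Lamp1, membrane proteins of the lysosome, had -0.98 and -0.85.

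Lipid handling genes had a median of -0.51 over 8 genes, and after Apoe the cholesterol exporter gene Abca1 (-0.91) and the lipoprotein receptor gene Lrp1 (-0.91) had the lowest differences. Alternative activation genes were lower in 8 of 11 cases with a median of -0.35, which was -1.41 over the 5 genes left by a filter at the 70th percentile. Arg1, Retnla and Fn1 passed the filter through the untreated EAE array alone. Of the 4 past 2-fold, Tgfbi (-1.70), Fn1 (-1.48) and Chil3 (-1.41) are also expressed by monocytes, and Fn1 and Chil3 stand in the monocyte list as well. The fourth was the interleukin 4 receptor gene Il4ra (-1.21). Arg1 and Mrc1, other genes of this state, were dim and had -0.35 and 0.06.

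Leukocyte genes are given apart from the microglial ones. Of the 15 neutrophil genes kept, 14 were lower, 10 of them at least 2-fold, and the median was -3.66. With no filter on dim genes it was -1.37 over all 18 measured genes, and Stfa2l1 and Stfa3 passed the filter through the untreated EAE array alone. Retnlg, a resistin-like protein of granulocytes, lay at 9.15 with iguratimod and 15.16 without (64.6-fold lower), and between 8.43 and 11.60 on the 6 arrays outside the pair. S100a8, a calcium-binding alarmin, lay at 13.59 with iguratimod and 18.88 without (38.9-fold lower), and between 10.00 and 15.40 on the other 6. Its partner S100a9 was 12.6-fold lower. The granule protein genes Camp, Ltf, Mmp8 and Ngp were between 16.9-fold and 18.9-fold lower. For Retnlg and S100a8 the level with iguratimod lay within the range of the other 6 arrays and the level without lay above it.

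Not all neutrophil genes had differences of this size. The granulocyte growth factor receptor gene Csf3r lay at 12.97 with iguratimod and 14.23 without, and at 12.97 in naive. Ly6g, the surface antigen used to sort neutrophils, lay at 10.11 with iguratimod and 10.52 without, and the chemokine receptor gene Cxcr2 at 9.60 with iguratimod and 9.98 without. Of the measured neutrophil markers 3, Elane, Mmp9 and Mpo, were below the filter on both arrays. None of the marker genes was listed at 0 on any array, since summarised array values have a background level.

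All 10 kept monocyte genes were lower, 6 of them at least 2-fold, with a median of -1.32. Ly6c2, the antigen that marks inflammatory monocytes, lay at 11.28 with iguratimod and 14.27 without (7.97-fold lower), against 10.02 in naive. Ccr2, the receptor through which monocytes leave the marrow and enter tissue, lay at 8.31 with iguratimod and 9.54 without (2.35-fold lower), and at 8.73 in naive. Ms4a4c was 2.88-fold lower and Plac8 2.82-fold lower.

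Genes of lymphocytes and other leukocytes were close to equal, and apart from the dendritic list their medians took either sign under the alternative settings. Of 14 measured T cell genes 5 were kept, with a median of 0.22. Cd3e, a chain of the T cell receptor complex, lay at 8.12 with iguratimod and 8.21 without, and passed the filter through the latter array alone. The medians were -0.20 for NK and cytotoxic cell genes (4 kept), 0.05 for B and plasma cell genes (4 kept), 0.07 for mast cell, basophil and eosinophil genes (4 kept) and 0.10 for dendritic cell genes (8 kept). In the NK list the chemokine gene Ccl5 had -0.79. In the dendritic list Itgax, which is also a disease-associated microglia gene, had -1.26 and Bst2 had -0.84. The other 6 dendritic genes were higher, led by Xcr1 at 0.83. Xcr1 and Cd209a passed the filter through the iguratimod array alone. Border-associated macrophage genes, of cells that line the vessels and meninges, had a median of 0.11 over 8 genes, also of either sign under the alternatives. Lyve1 had 0.58 and Stab1 had -0.48. Lyve1 and Cbr2 passed the filter through the iguratimod array alone, and Ms4a7 through the untreated EAE array alone.

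Genes of general cell metabolism were lower as well. All 15 respiratory chain genes were lower, by a median of -0.49 and with 0 past 2-fold, led by Ndufa1 of complex I (-0.80) and Cox7a2 of complex IV (-0.78). All 13 glycolysis genes were lower by a median of -0.35, led by the glucose transporter gene Slc2a1 (-0.86) and the pyruvate kinase gene Pkm (-0.75). Proteasome genes had a median of -0.33, and the 3 catalytic subunits of the interferon-induced immunoproteasome, Psmb10, Psmb8 and Psmb9, had -0.70, -0.55 and -0.54. Cytosolic ribosomal protein genes had a median of -0.47 over 9 genes, with Rpl27 2.35-fold lower.

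Cell cycle genes had a median of -0.14 over 11 genes, against -0.12 over protein-coding genes, and 0 past 2-fold. Mki67, a marker of dividing cells, lay at 11.23 with iguratimod and 11.53 without, and at 8.02 in naive, so the level with iguratimod was closer to untreated EAE than to naive. Cholesterol synthesis genes had a median of -0.01, of either sign under the alternatives.

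Immediate early genes, which encode transcription factors and feedback regulators made within minutes of a stimulus, were the one list with a median past 2-fold on the higher side. The median of the 8 kept genes was 1.08, 8 of 8 were higher and 4 were at least 2-fold higher. With no filter on dim genes the median of all 13 measured members was 0.31, under 2-fold, and Egr1 passed the filter through the iguratimod array alone. Dusp1, a phosphatase that ends MAP kinase signals, lay at 16.41 with iguratimod and 14.56 without (3.60-fold higher). Fosb lay at 10.38 with iguratimod and 8.66 without (3.31-fold higher), Fos at 9.85 with iguratimod and 8.40 without (2.74-fold higher) and Jun at 11.50 with iguratimod and 10.12 without (2.60-fold higher). These are subunits of the transcription factor AP-1. The mRNA-decay factor gene Zfp36 had 0.78 and Atf3 had 0.47, and Egr1 (0.26) and Klf6 (0.17) were close to equal.

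The untreated EAE array was the low one of the series for these genes. For 7 of the 8 it lay below all 6 arrays outside the pair, and for 5 of the 8 the iguratimod array did so too. The naive control array had Dusp1 at 17.19, Fosb at 11.31, Fos at 10.61 and Jun at 12.20, above both arrays of the pair. Among all genes kept 7.62% lay lower on the untreated EAE array than on the other 6, and 13.5% lay lower on the iguratimod array. Rgs1, a regulator of G protein signals that is induced on activation, had the largest difference of the named higher genes, at 10.95 with iguratimod and 9.04 without (3.75-fold higher), against 11.12 in naive, and Ccl3, given above, lay at 12.83 in naive. The letters of the cyclic AMP response element, TGACGTCA, were found on either strand in the promoter of 1 of 7 immediate early genes with a sequence, Dusp1, and in 1.79% of all promoters.

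**Figure D4:**
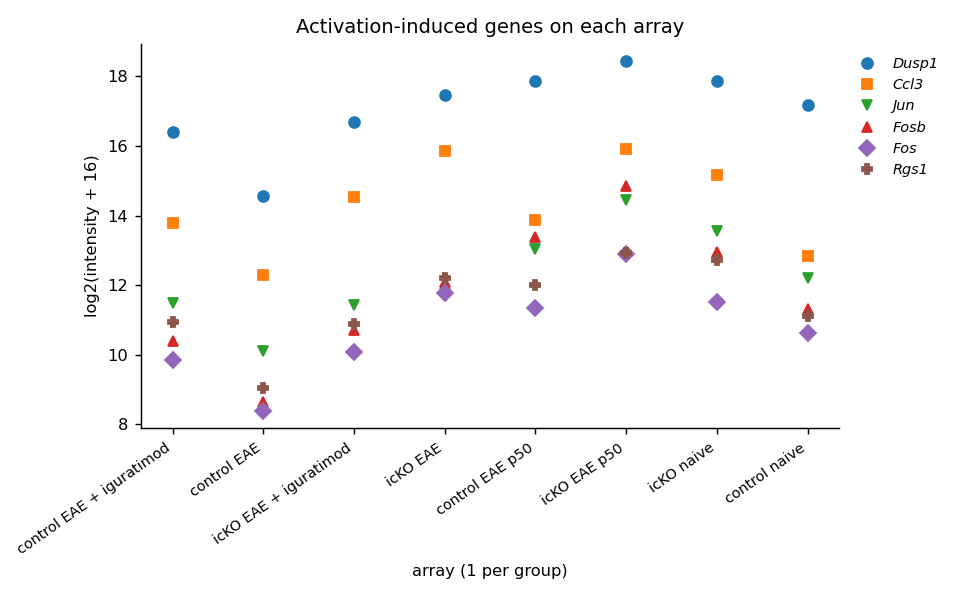
Levels of 6 activation-induced genes, as log2(intensity + 16), on each of the 8 arrays, 1 array a group. In the control genotype all 6 are higher on the iguratimod array than on the untreated EAE array, as with Dusp1 at 16.41 and 14.56, and in icKO all 6 are lower on the iguratimod array.

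Several genes with extreme differences belonged to no list. Cdr1 lay at 7.01 with iguratimod and 12.26 without (a difference of -5.25), and between 7.59 and 10.11 on the 6 arrays outside the pair, so the iguratimod array was the lowest of the 8 and the untreated array the highest. Ifitm6, of the interferon-induced membrane protein family, lay at 7.25 with iguratimod and 10.32 without (8.39-fold lower), and at most at 7.46 elsewhere. Il1f9, an epithelial and myeloid cytokine of the interleukin 1 family, was 7.33-fold lower. It lay at 11.36 without iguratimod and at most at 10.61 on the 6 arrays outside the pair. Ifitm6 and Il1f9 were thus highest on the array where the neutrophil genes Retnlg and S100a8 were highest. The part of the neutrophil difference in them was not tested. Lilrb4a, an inhibitory receptor of myeloid cells, lay at 11.07 with iguratimod and 13.84 without (6.83-fold lower) and at 10.81 in naive.

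On the higher side, genes that are not known as microglial markers stood among the immediate early genes in the order of differences. Crh, the corticotropin-releasing hormone gene, lay at 9.69 with iguratimod and 8.22 without, Ear14, a ribonuclease gene of the eosinophil family, at 10.99 with iguratimod and 9.62 without, and Mab21l1 at 10.23 with iguratimod and 9.12 without. The remaining named genes, Btbd35f22, Btbd35f6, Btbd35f25, Spopfm2, Scgb2b6 and Defa40, were between 2.04-fold and 2.83-fold higher and belong to multicopy families whose probe sets can share sequence, so their values are uncertain.

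The icKO pair gives the same contrast on other arrays and mice of the other genotype. There 273 of 16341 genes (1.67%) were at least 2-fold lower with iguratimod and 116 (0.71%) at least 2-fold higher, and 53.9% were lower by any amount. Across the 16382 genes the differences of the 2 pairs had a Pearson correlation of 0.02 over genes measured on the same arrays, which is a description, since genes are not independent replicates. At least 2-fold lower in both were 41 genes, which is 13.4% of the control list and 15.02% of the icKO list, and at least 2-fold higher in both was 1 gene (0.585% of the control list and 0.862% of the icKO list), a small RNA gene of a kind not named here. The 41 held 23 genes of the kinds named here. They included the class II genes H2-Aa, H2-Ab1 and H2-Eb1, Cxcl9, Cybb, Rac2, Cst7, Cstb, Il1b, Fcgr4, Cxcr4, and the monocyte genes Ly6c2, Fn1 and Chil3.

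Among these Cstb had a difference of -2.13 in control and -2.29 in icKO, Cxcr4 had -2.12 in both, and H2-Aa had -1.65 in control and -1.48 in icKO. Other genes with large control differences had small ones in icKO. Ifi207 had -2.25 in control and -0.04 in icKO, Cxcl13 had -2.26 in control and -0.11 in icKO, and Clec7a had -3.89 in control and -0.90 in icKO, where it lay at 14.24 with iguratimod and 15.14 without.

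By list, the disease-associated genes had medians of -0.55 in control and -0.17 in icKO, MHC class II genes -0.73 in control and -0.42 in icKO, and chemokines -0.77 in control and -0.90 in icKO. The type I interferon list had -0.84 in control and 0.19 in icKO, the NADPH oxidase list -1.18 in control and -0.16 in icKO, and the respiratory chain list -0.49 in control and -0.41 in icKO. The neutrophil list had -3.66 in control and 0.35 in icKO, and the monocyte list -1.32 in control and -0.36 in icKO. Whether any of these differs between the genotypes was not tested.

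**Figure D5:**
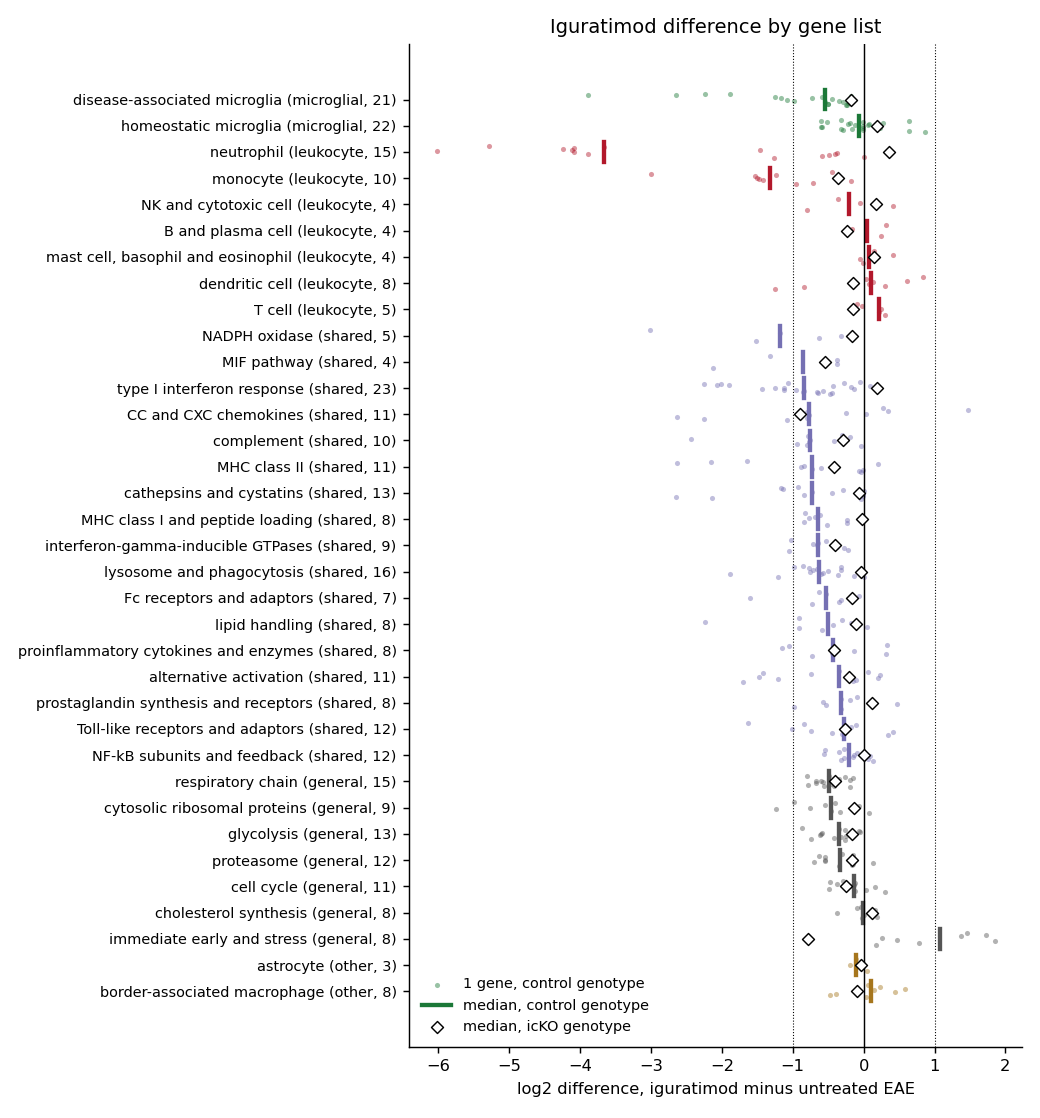
Log2 difference, iguratimod minus untreated EAE, for each gene of each list (points) with the list median in the control genotype (bars) and in icKO (diamonds); dotted lines mark 2-fold and colours mark microglial, leukocyte, shared, general and other lists. The shared lists have control medians between -0.21 and -1.18, the neutrophil median over the genes kept is -3.66 in control and 0.35 in icKO, and the immediate early median is 1.08 in control and -0.78 in icKO.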

How the data were processed

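Microglial RNA from mice was measured on Affymetrix whole-transcript arrays, 1 array in each of 8 groups, and groups were taken from the labels. The authors deposited intensities on a linear scale for 65956 rows, with Affymetrix Expression Console per the submitters' processing notes. The summary and normalization methods are not stated in the labels. Of the rows, 31258 carried 1 gene symbol (1789 of them updated through RefSeq GRCm38.p6), 1492 with several symbols were not used, and 33206 had no name here. The brightest probe set stood for each of the 441 genes with more than 1.

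Values were analysed as log2(intensity + 16), with no further normalization, for genes whose level passed the 50th percentile of the named probe sets on either array of the pair. With 1 array a side nothing was tested, and 2-fold differences were counted. The arithmetic alone was checked, on a copy of the untreated EAE array with known differences planted, which holds no noise between arrays. The 39 gene lists and the members were chosen with earlier results of these data known. Lists with at least 3 genes kept were described by their median and counts. Besides members named above, Cxcr4, Tlr6, Nfkb2, Pfkp, Mcm6, Srebf2, Nkg7, Cd22 and Slc1a2 passed the filter through the untreated EAE array alone. Sqle and Ncr1 passed it through the iguratimod array alone. Named were the 15 lowest and 15 highest protein-coding genes whose brighter array lay above the 60th percentile of genes kept, the 4 members of each list with the largest differences, and a set of defining genes. Any other gene named was chosen after its value was seen. Motifs were searched in RefSeq promoters, 250 bases before to 50 after each start. Python 3.11.15, numpy 2.4.6 and pandas 2.3.3 were used. Alternatives were the filter, a quantile normalization, centring, the mean of probe sets, pseudocounts of 1 and 64 and a 1.5-fold threshold.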

Additional observations from a re-analysis of the deposited data

Results flagged for a closer look

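These results had one sign in the control pair and the opposite sign in the icKO pair, each by at least 0.25 on the log2 scale. Of 35 list medians 2 met this, and of 160 named genes 26 did. The difference between the genotypes was not tested, and each value is iguratimod minus untreated EAE, from 1 array a side.

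The neutrophil list had a median of -3.66 in control and 0.35 in icKO, and the control value was -1.37 with no filter on dim genes. Among its genes Retnlg had -6.01 in control and 0.98 in icKO, S100a8 had -5.28 in control and 0.29 in icKO, Camp had -4.24 in control and 1.30 in icKO, Ltf had -4.11 in control and 0.64 in icKO, Wfdc21 had -3.88 in control and 0.39 in icKO, and S100a9 had -3.66 in control and 0.35 in icKO. The monocyte gene Plac8 had -1.498 in control and 0.43 in icKO. The untreated EAE array of the control genotype had the highest neutrophil sum of the 8 arrays, as given above, and its part in these values was not tested.

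The immediate early list had a median of 1.08 in control and -0.78 in icKO, and the control value was 0.31 with no filter. Dusp1 had 1.85 in control and -0.79 in icKO, Fosb had 1.73 in control and -1.36 in icKO, Fos had 1.45 in control and -1.69 in icKO, and Jun had 1.38 in control and -0.35 in icKO. The activation-induced genes Rgs1 and Ccl3 had 1.91 and 1.48 in control, against -1.33 and -1.34 in icKO.

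Smaller or dimmer differences made up the rest. On the lower side in control were the cytokine receptor gene Il4ra (-1.21 in control, 0.29 in icKO), the antiviral gene Bst2 (-0.84 in control, 0.68 in icKO), the clearance receptor gene Mertk (-0.60 in control, 0.36 in icKO), the NF-kB subunit gene Rel (-0.54 in control, 0.31 in icKO), the sterol gene Msmo1 (-0.37 in control, 0.44 in icKO) and the deubiquitinase gene Cyld (-0.31 in control, 0.26 in icKO). On the higher side were the complement receptor gene Cr2 (0.25 in control, -0.55 in icKO), the chemokine receptor gene Xcr1 (0.83 in control, -0.57 in icKO), Scgb2b6 (1.03 in control, -0.38 in icKO), Spopfm2 (1.15 in control, -0.38 in icKO), Btbd35f25 (1.15 in control, -0.39 in icKO), Btbd35f6 (1.28 in control, -0.44 in icKO) and Btbd35f22 (1.502 in control, -0.29 in icKO).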

How the results depend on the processing

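No paired analysis was possible because each group holds 1 array, and for the same reason no array could be left out, the untreated EAE array with its neutrophil transcripts included. Of the counts of genes past 2-fold, the 305 lower genes became 1211 at a 1.5-fold threshold, and the 171 higher genes became 1237 at that threshold, 92 with arrays centred on their median and 108 with a pseudocount of 64. Under quantile normalization there were 341 lower and 144 higher genes. The cause of these shifts in the higher count was not tested, beyond what each setting does by construction. Of 245 list medians recomputed under the 7 alternatives, 242 moved by less than 1.5-fold. The exceptions were 0.31 for the immediate early list and -1.37 for the neutrophil list with no filter on dim genes, which adds the dim members, and -1.41 for alternative activation with a filter at the 70th percentile, which removes them. The median of the disease-associated list ran from -0.64 to -0.50, that of the interferon list from -0.95 to -0.80, that of MHC class II from -0.87 to -0.69 and that of the homeostatic list from -0.18 to -0.01. Of the 160 genes recomputed singly, of which 138 passed the filter at the 70th percentile, none moved by as much as 1.5-fold and none past 2-fold changed sign. An alternative chosen after seeing the data left out genes with values repeated across arrays and gave -0.14 for the homeostatic list and -0.84 for cathepsins and cystatins. With 1 array a side the spread between arrays of a group is unknown, which limits every value above, and no detection call separates dim genes from background.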

Other observations

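Gene families, some of whose members also stand in the lists, were read after their values were seen, so they are descriptions only. The p200 family, interferon-induced sensors and regulators that lie together on chromosome 1, was lower with iguratimod in 9 of 9 genes by a median of -0.98, with 4 at least 2-fold lower. The icKO median was -0.08. Of the 4, Ifi204, Ifi207 and Ifi211 were already counted in the interferon list. Aim2, the inflammasome sensor of the family, had the smallest difference, at 10.74 with iguratimod and 10.93 without. In the Oas family 4 of 5 kept genes were at least 2-fold lower, of which Oas1a, Oas2 and Oasl2 were already counted in the interferon list. The icKO median of the Oas family was 0.25. The lysozyme genes Lyz2 and Lyz1, secreted antibacterial enzymes of macrophages and granulocytes, lay at 12.98 and 10.18 with iguratimod, against 15.08 and 12.21 without. In the Ms4a family of membrane proteins Ms4a6c had a difference of -1.46 and Ms4a4c one of -1.53, while Ms4a6b and Ms4a6d had -0.40 and -0.42.

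Of 39 kept cytosolic ribosomal protein genes 37 were lower, with a median of -0.50 and 6 at least 2-fold lower, and the ribosomal protein pseudogenes had a median of -0.56, as far as their probe sets can be told from those of the genes. Among 5 mitochondrially encoded genes COX2, ND3 and ND2 had differences of -1.62, -1.77 and -1.16. The value of COX1 repeats across arrays and cannot show a difference. The Btbd35f family, a multicopy group of X-linked genes, was higher in 18 of 18 genes with a median of 0.72 in control and 0.06 in icKO. SnoRNA genes had a median of 0.41 and microRNA genes one of 0.29 over all those kept.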
